A study of Mus musculus with 6 samples.

Results

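Paternally expressed imprinted genes are transcribed mainly from the chromosome copy inherited from the father, because a mark set in the germ line keeps the maternal copy silent. Here 10 such genes outside the large Dlk1-Dio3, Igf2-Kcnq1 and Prader-Willi domains were followed: Plagl1, Mest, Nnat, Peg3, Peg10, Sgce, Sfmbt2, Impact, Inpp5f and Zdbf2. Each was named by its symbol, in a list drawn up with earlier results of these data known. Each was measured by a single probe set, and is 1 of 19938 genes with a value. They were measured in mouse embryonic stem cells labelled as chromosome transfer cells, in the lines ♂M-1, ♂M-3 and ZM-1, with 2 samples of each line and 1 array per sample. The labels do not say whether the repeats were separate cultures. The culture medium of every line held LIF, the MEK blocker PD0325901 and the GSK3β blocker CHIR99021, on gelatin-coated plates. The labels give no meaning for the prefixes ♂M and ZM, and they name no strain, sex, genotype or chromosome donor. Each group is 1 line and there is a single ZM line, so line and type cannot be told apart. The question put to the arrays was whether the level of these genes differed between the lines.

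The maternal copy of most of these genes is silenced by DNA methylation laid down in the oocyte at or near a promoter. That methylation survives the demethylation of the early embryo because ZFP57, a zinc finger protein, binds a methylated 6-base site and recruits TRIM28 and DNA methyltransferases. Sfmbt2 belongs to a smaller class whose maternal copy is held by a Polycomb histone mark instead, most clearly in extraembryonic tissue. Loss or gain of an imprint in cultured stem cells can abolish or raise the RNA of such a gene. An array reads the RNA of both copies together, so the values below are total levels and do not say which copy was transcribed.

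Promoter sequences came from a table of RefSeq start sites (GRCm38.p6) in which 7 of the 10 genes were matched, all but Peg10, Sgce and Impact. The windows were the 250 bases before each start, and the motif searched was the ZFP57 hexamer TGCCGC and its reverse complement GCGGCA, on both strands. Of all 32851 windows of this length, 8.68% held the hexamer at least once. Among the 7 genes, 3 held it in a window (Plagl1, Mest and Zdbf2) and 4 did not (Nnat, Peg3, Sfmbt2 and Inpp5f). The 7 genes had 11 windows, so this count per gene cannot be set against the share of windows. The Plagl1 window had 1 match, the downstream Mest window 2, and the distal Zdbf2 window 3. A match is only a string of letters and does not show binding, and these windows need not cover the imprinted control region of each gene. The windows shown are those of the 3 genes with a match, followed by Nnat and Sfmbt2, which separated both ♂M lines from ZM-1 in opposite directions and hold no match. Capitals mark the hexamer on either strand.

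Plagl1, chr10:13090582-13090831, strand +: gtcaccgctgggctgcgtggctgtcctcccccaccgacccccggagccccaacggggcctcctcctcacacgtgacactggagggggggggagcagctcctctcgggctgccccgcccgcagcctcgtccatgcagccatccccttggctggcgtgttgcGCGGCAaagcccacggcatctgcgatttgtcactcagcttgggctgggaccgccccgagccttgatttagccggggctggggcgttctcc
Mest, chr6:30737800-30738049, strand +: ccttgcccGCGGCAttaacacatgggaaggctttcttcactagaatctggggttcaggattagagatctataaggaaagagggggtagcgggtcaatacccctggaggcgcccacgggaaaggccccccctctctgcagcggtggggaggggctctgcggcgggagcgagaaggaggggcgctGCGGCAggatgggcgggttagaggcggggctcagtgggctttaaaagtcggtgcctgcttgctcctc
Zdbf2, chr1:63200108-63200357, strand +: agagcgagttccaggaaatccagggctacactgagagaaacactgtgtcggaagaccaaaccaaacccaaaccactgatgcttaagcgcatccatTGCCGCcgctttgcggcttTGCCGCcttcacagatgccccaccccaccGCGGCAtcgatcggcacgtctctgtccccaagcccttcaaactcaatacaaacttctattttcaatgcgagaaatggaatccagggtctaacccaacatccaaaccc
Nnat, chr2:157559828-157560077, strand +: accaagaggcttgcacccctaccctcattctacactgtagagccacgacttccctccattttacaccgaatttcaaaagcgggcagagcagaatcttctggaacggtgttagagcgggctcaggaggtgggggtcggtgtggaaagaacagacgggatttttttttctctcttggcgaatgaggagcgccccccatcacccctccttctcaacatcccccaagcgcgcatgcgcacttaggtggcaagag
Sfmbt2, chr2:10370201-10370450, strand +: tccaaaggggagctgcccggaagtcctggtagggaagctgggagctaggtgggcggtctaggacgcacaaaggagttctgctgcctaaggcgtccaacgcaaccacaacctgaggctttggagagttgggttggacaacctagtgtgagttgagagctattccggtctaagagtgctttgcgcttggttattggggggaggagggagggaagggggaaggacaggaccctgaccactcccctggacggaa

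CpG pairs numbered 19 in the Plagl1 window, 14 in that of Mest, 13 in that of Zdbf2, 12 in that of Nnat and 8 in the Sfmbt2 window shown, against a median of 6 over all windows. A second Sfmbt2 window, also without a hexamer, had 15. The promoter-proximal Zdbf2 window, which is not shown, had 26 CpG pairs and no hexamer, and 9.59% of all windows had as many.

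The deposited values are linear intensities, and the median over all probe sets lay between 67.2 and 71.3 in the 6 arrays and the lower quartile between 23.8 and 25.1. All 10 genes lay above that quartile in every array, the lowest being Inpp5f at 52.8. Of 8 embryonic stem cell markers such as Pou5f1 and Nanog, the lowest value in any array was 263, above the median of every array. Some of 10 fibroblast markers were as bright, such as Col1a2 at line means of 364 to 548, while the lowest reading among the 10 was 12.6. These levels alone therefore do not settle the cell type. The 10 genes were chosen with earlier results of these data known, so their share of calls is not a test of imprinted genes. Between ♂M-1 and ZM-1, 5 of the 10 genes were called, against 4.41% of all genes. Of these, 4 were higher in ♂M-1 (Mest, Peg3, Peg10 and Sfmbt2) and Nnat was lower, where 1.89% of all genes were higher and 2.53% lower. The 5 became 2 without ♂M-1 replicate 2 or ZM-1 replicate 2, and 3 without either ♂M-3 array. Between ♂M-3 and ZM-1, 6 of the 10 were called, against 15.9% of all genes. Of these, 5 were higher in ♂M-3 (Plagl1, Mest, Peg3, Sfmbt2 and Inpp5f) and Nnat was lower, where 8.66% of all genes were higher and 7.2% lower. Between the ♂M lines, 3 were called, against 6.54% of all genes. Peg10 was higher in ♂M-1 and Plagl1 and Inpp5f were lower, where 3.22% of all genes were higher and 3.32% lower. Centring each array on its median moved the share of all calls that were higher from 42.7% to 62.0% for ♂M-1 against ZM-1 and from 54.6% to 70.9% for ♂M-3 against ZM-1. The first 2 comparisons share the ZM-1 arrays, so they are not independent of each other. A gene counts as changed where limma's moderated test gave an adjusted p below 0.05, and all p-values reflect no spread other than that between the repeats. Arrays of 2 lines that do not overlap carry little weight by themselves, since 48.9% of all genes showed this between ♂M-1 and ZM-1 (23.0% upward and 25.9% downward). The share was 57.5% for ♂M-3 against ZM-1 (30.1% upward and 27.4% downward) and 50.5% for ♂M-1 against ♂M-3 (21.6% upward and 28.9% downward).

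**Figure D1:**
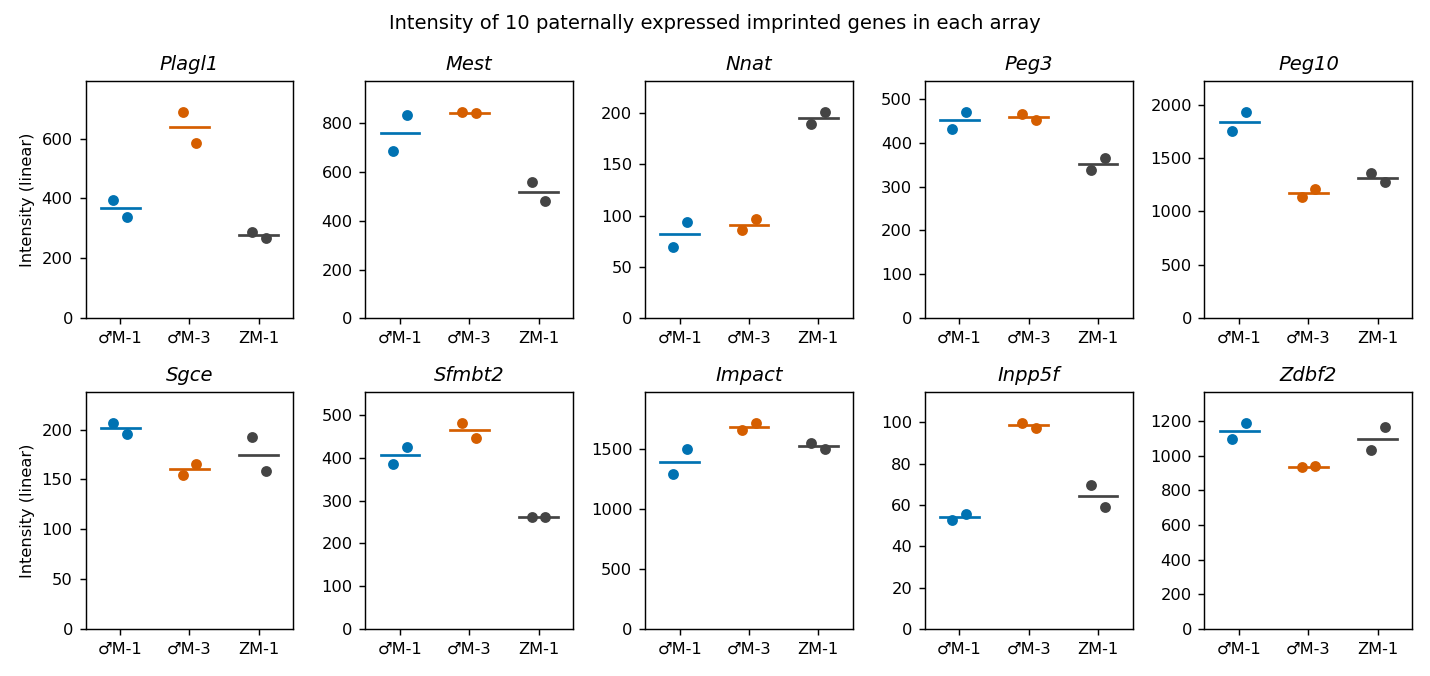
Intensity of the 10 genes (vertical axis, linear, from 0, scaled per gene) in each array of the 3 lines; points are the 2 repeats and bars their mean. Nnat is highest in both ZM-1 arrays, Plagl1 and Inpp5f in both ♂M-3 arrays and Peg10 in both ♂M-1 arrays.

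Plagl1 encodes a zinc finger transcription factor that restrains proliferation and regulates other imprinted genes. Its ♂M-1 arrays read 396 and 339, its ♂M-3 arrays 689 and 586 and its ZM-1 arrays 288 and 268. Both ♂M-3 arrays lay above all others, and both ♂M-1 arrays lay between those of ♂M-3 and ZM-1. Against ZM-1, ♂M-3 was 2.28-fold higher (log2 difference 1.19, 95% interval 0.95 to 1.43, adjusted p = 1.80e-04), where folds are taken on the scale of log2(intensity + 1). Only 0.537% of all genes differed by at least as much between these lines. ♂M-1 was 1.73-fold lower than ♂M-3 (adjusted p = 0.00328), which just missed the threshold when all probe sets were tested (0.0505). Against ZM-1 the ♂M-1 level did not pass, with a log2 difference of 0.40 (95% interval 0.16 to 0.64, adjusted p = 0.0749). It did pass in 4 of 16 alternative settings. These were median centring (0.0366), genes above the 50th percentile (0.0274), an intensity trend (0.0162) and a replicate block (0.0401).

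Plagl1 is placed upstream of a network of imprinted and matrix genes, of which 9 of 10 listed genes were measured. Between ♂M-3 and ZM-1, where Plagl1 differed most, 0 of these 9 were called higher and 1, the matrix proteoglycan Dcn, was lower. Of all genes, 8.66% were higher and 7.2% lower there, so counts this small do not show whether the network followed Plagl1. Dcn is also 1 of 10 fibroblast markers, all of them lower in that comparison. The median log2 difference of the 9 was 0.02, against 0.002 for all genes. Grb10 (0.33, adjusted p = 0.0540) and Meg3 (0.28, 0.0518) lay just short of the threshold upward, and Rasl11a (-0.27, 0.0545) downward. Between ♂M-1 and ZM-1, where Plagl1 did not pass in the main fit, Igf2 and the noncoding RNA Meg3 were higher and Dcn lower. They made up 33.3% of the 9, against 4.41% of all genes. Of these 3 calls, only that of Dcn was kept without ♂M-1 replicate 2 or without ZM-1 replicate 1, and Meg3 was lost without any of the 6 arrays (0.0638 to 0.214). Between the ♂M lines, Dcn was the single gene of the 9 called, higher in ♂M-1, or 11.1% against 6.54% of all genes. The genes whose centred profiles over the 6 arrays lay nearest to Plagl1 were Dsp, a desmosome protein (Euclidean distance 0.225), Epha4, an ephrin receptor (0.268), and Dnah8, an axonemal dynein chain (0.284). Dsp measured 213 ± 11.7 (SD, n = 2) in ♂M-1, 376 ± 3.73 for ♂M-3 and 173 ± 6.33 for ZM-1.

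Peg3, a large zinc finger protein that affects growth and maternal behaviour, was higher in both ♂M lines by a small amount. It measured 432 and 470 in ♂M-1, 465 and 452 for ♂M-3, and 337 and 365 for ZM-1. The 4 ♂M arrays lay above both ZM-1 arrays and overlapped each other. The difference was 1.28-fold for ♂M-1 (adjusted p = 0.0442) and 1.30-fold for ♂M-3 (adjusted p = 0.0144). The ♂M-1 call was lost whichever of the 6 arrays was left out, with log2 differences of 0.30 to 0.42. Without either ♂M-3 array, which is of neither line compared, the difference stayed at 0.36. The ♂M-3 call was lost without ♂M-3 replicate 1 (0.0894) or 2 (0.0681) and without ZM-1 replicate 1 (0.0605). ♂M-1 and ♂M-3 differed by a log2 value of -0.03, with a 95% interval from -0.21 to 0.16.

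Zdbf2, which carries a DBF-type zinc finger and promotes growth after birth, was among the brighter genes. Its arrays read 1097 and 1192 in ♂M-1, 936 and 940 for ♂M-3, and 1033 and 1166 for ZM-1. Both ♂M-3 arrays were the lowest, and those of ♂M-1 and ZM-1 overlapped. No pair of lines passed the test, with adjusted p = 0.762 for ♂M-1 against ZM-1, 0.115 for ♂M-3 against ZM-1 and 0.0979 for ♂M-1 against ♂M-3. The 95% interval of the last difference ran from 0.09 to 0.48 on the log2 scale. ♂M-3 against ZM-1 passed in 2 of 16 alternative settings, genes above the 50th percentile (0.0483) and an intensity trend (0.0285). ♂M-1 against ♂M-3 passed in the same 2 settings (0.0317 and 0.0140).

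Sfmbt2, a Polycomb-related protein with MBT repeats that is needed for trophoblast growth, was higher in both ♂M lines. It measured 386 and 426 in ♂M-1, 482 and 446 for ♂M-3, and 262 and 261 for ZM-1. No ♂M array came near the ZM-1 values, and ♂M-1 lay just below ♂M-3. ♂M-1 exceeded ZM-1 by 1.55-fold (adjusted p = 0.00374) and ♂M-3 by 1.77-fold (adjusted p = 3.34e-04). Between the ♂M lines the log2 difference was -0.19 (adjusted p = 0.239). Of 7 trophoblast markers, 0 were higher in either ♂M line than in ZM-1 and 1, the keratin Krt18, was lower in each. This made up 14.3% of the 7 in each comparison, against 4.41% of all genes for ♂M-1 and 15.9% for ♂M-3. Leaving out ♂M-1 replicate 1 (0.0561) or 2 (0.0968) ended the Krt18 call in ♂M-1. The summed level of these markers was 865 to 880 in ♂M-1, 924 to 953 in ♂M-3 and 1008 to 1070 in ZM-1. The trophectoderm regulators Cdx2 and Elf5 passed between no pair of lines. Their line means were 42.1 to 46.9 and 31.8 to 34.3, below the median of every array, which limits what the lack of a call can show. Gab1, Slc38a4, Jade1 and Smoc1, other genes reported to be silenced on the maternal copy by the histone mark, passed between no pair of lines either.

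Peg10 and Sgce lie side by side on chromosome 6 and start from a shared region in opposite directions. Peg10 derives from a retrotransposon and is needed for the placenta. It measured 1752 and 1932 in ♂M-1, 1133 and 1214 for ♂M-3, and 1358 and 1275 for ZM-1. Both ♂M-1 arrays were the highest of the 6 and both ♂M-3 arrays the lowest. The ♂M-1 level exceeded that of ♂M-3 by 1.57-fold (log2 difference 0.65, 95% interval 0.46 to 0.84, adjusted p = 0.00283). Against ZM-1, Peg10 in ♂M-1 was 1.4-fold higher (adjusted p = 0.0160). It no longer passed when ♂M-1 replicate 2 (0.127) or the second ZM-1 array (0.0635) was left out. Against ZM-1, ♂M-3 did not pass (log2 difference -0.17, adjusted p = 0.233).

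Sgce encodes ε-sarcoglycan, a membrane protein of the dystrophin-associated complex. It read 207 and 196 in ♂M-1, 154 and 166 for ♂M-3, and 193 and 158 for ZM-1, so the order of the line means was the same as for Peg10. Its arrays in ♂M-1 lay above those in ♂M-3, and the ZM-1 pair spanned most of the gap. No pair passed, the nearest being ♂M-1 against ♂M-3 at a log2 difference of 0.33 (95% interval 0.10 to 0.57, adjusted p = 0.103). That difference passed without either ZM-1 array (adjusted p = 0.0399). Of 6 measured genes of the same complex, 0 were higher and 2 lower in ♂M-1 relative to ZM-1, namely Sgca and Sgcd. In ♂M-3, 0 were higher and 3 lower, namely Sgca, Sgcb and Sgcd. Line means were 49.2 to 65.4 for Sgca and 33.7 to 53.8 for Sgcd, below the median of every array. Most of these calls were lost when some single array was left out. Between ♂M-1 and ZM-1, the Sgca call was lost whichever of the 6 arrays was left out (log2 differences -0.29 to -0.52). The Sgcd call there was lost without ♂M-1 replicate 2, either ♂M-3 array or either ZM-1 array (-0.35 to -0.59). In ♂M-3, Sgca was lost without any ♂M-3 or ZM-1 array (♂M-3 replicates 1 and 2 at 0.160 and 0.0637, those of ZM-1 at 0.0692 and 0.0785). Sgcb was lost there without either ♂M-1 array (0.0553), ZM-1 replicate 1 (0.128), or ♂M-3 replicate 1 (0.184) or 2 (0.0525).

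Nnat encodes neuronatin, a small proteolipid of the endoplasmic reticulum found in neurons and endocrine cells. It was the only one of the 10 genes called lower in a ♂M line than in ZM-1. It measured 69.6 and 93.5 in ♂M-1, 85.9 and 96.5 for ♂M-3, and 189 and 201 for ZM-1. The 4 ♂M arrays overlapped each other, and both ZM-1 arrays stood far above them. The level in ♂M-1 was 2.40-fold lower (log2 difference -1.26, 95% interval -1.55 to -0.97, adjusted p = 0.00111) and that in ♂M-3 2.13-fold lower (log2 difference -1.09, adjusted p = 8.85e-04). Among all genes, 0.236% differed from ZM-1 at least as much in ♂M-1, and 0.747% in ♂M-3. Blcap, whose intron contains Nnat, measured 173 ± 16.6 (SD, n = 2), 190 ± 0.0838 and 190 ± 17.7 in ♂M-1, ♂M-3 and ZM-1, with adjusted p of at least 0.497 in every pair. Of the other measured neighbours, Src was higher in ♂M-3 than in ZM-1 (log2 difference 0.39, adjusted p = 0.0217) and Vstm2l lower (-0.35, 0.0191).

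Markers of neurons moved with Nnat in 1 of 6 cases: the neuronal and endocrine factor Neurod1 measured 45.0 ± 5.63 (SD, n = 2) in ♂M-1, 34.3 ± 1.62 for ♂M-3 and 82.2 ± 9.04 for ZM-1 (adjusted p = 0.00328 and 1.68e-04 against ZM-1). Neurod1 made up 16.7% of the 6 markers in each comparison with ZM-1, where 4.41% (♂M-1) and 15.9% (♂M-3) of all genes were called. The summed level of the 6 markers was 571 to 602, 568 to 592 and 582 to 583 in ♂M-1, ♂M-3 and ZM-1 for the 2 arrays of each. The part of other cells in the Nnat difference was not tested. In such bulk RNA, fewer cells of a type and less RNA per cell cannot be told apart. The genes with profiles nearest to Nnat were Actc1, cardiac actin (distance 0.220), Myh3, embryonic myosin (0.283), and Trf, transferrin (0.406). Actc1 measured 295 ± 74.2 (SD, n = 2) in ♂M-1, 299 ± 0.440 for ♂M-3 and 686 ± 81.7 for ZM-1.

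Mest encodes an enzyme of the α/β-hydrolase fold that is abundant in embryonic mesoderm and promotes growth. Its arrays read 688 and 833 in ♂M-1, 847 and 842 for ♂M-3, and 561 and 480 for ZM-1. The 4 ♂M arrays exceeded both ZM-1 arrays, and the ♂M-1 repeats differed widely from each other. ♂M-3 was 1.63-fold higher than ZM-1 (adjusted p = 0.00357). ♂M-1 was 1.46-fold higher (adjusted p = 0.0276), which no longer passed when ♂M-1 replicate 2 (0.174), the second ZM-1 array (0.108) or either ♂M-3 array (0.050044) was left out. Mest has 2 groups of start sites in RefSeq, and which of their transcripts the probe set reads was not checked. Its neighbour Copg2 passed between no pair of lines.

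Inpp5f, a phosphoinositide phosphatase with a Sac domain, had the lowest level of the group. It measured 52.8 and 55.7 in ♂M-1, 99.9 and 97.4 for ♂M-3, and 69.7 and 59.1 for ZM-1. Both ♂M-3 arrays were the highest of the 6 and both ♂M-1 arrays the lowest. ♂M-3 was 1.53-fold higher than ZM-1 (adjusted p = 0.00290), and ♂M-1 was 1.80-fold lower than ♂M-3 (log2 difference -0.85, 95% interval -1.06 to -0.64, adjusted p = 0.00111). ♂M-1 against ZM-1 did not pass (log2 difference -0.24, adjusted p = 0.194). In the brain only a short transcript from an internal start of Inpp5f is known to be imprinted. Whether the gene's probe set reads that transcript was not checked.

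Impact, which dampens the amino acid sensor GCN2 by binding its partner GCN1, was bright in every array. It measured 1290 and 1498 in ♂M-1, 1656 and 1720 for ♂M-3, and 1550 and 1498 for ZM-1. The ♂M-3 arrays were the highest, and ♂M-1 replicate 2 fell just below the lower ZM-1 array. No pair passed, with adjusted p = 0.461 for ♂M-1 against ZM-1, 0.314 for ♂M-3 against ZM-1 and 0.114 for ♂M-1 against ♂M-3. The 95% intervals of the first 2 differences were -0.33 to 0.07 and -0.05 to 0.35 on the log2 scale. ♂M-1 against ♂M-3 passed in 2 of 16 alternative settings, genes above the 50th percentile (0.0387) and an intensity trend (0.0146). Of 7 genes of the GCN2 pathway, 0 were called between ♂M-1 and ZM-1, against 4.41% of all genes. In ♂M-3 against ZM-1, 3 were higher (Gcn1, Trib3 and Chac1) and 0 lower. These calls made up 42.9% of the 7, against 15.9% of all genes. Gcn1 was lost without ♂M-3 replicate 1 (0.0518), and Trib3 without any of 3 arrays (♂M-3 replicates 1 and 2 at 0.125 and 0.0840, ZM-1 replicate 2 at 0.0755).

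**Figure D2:**
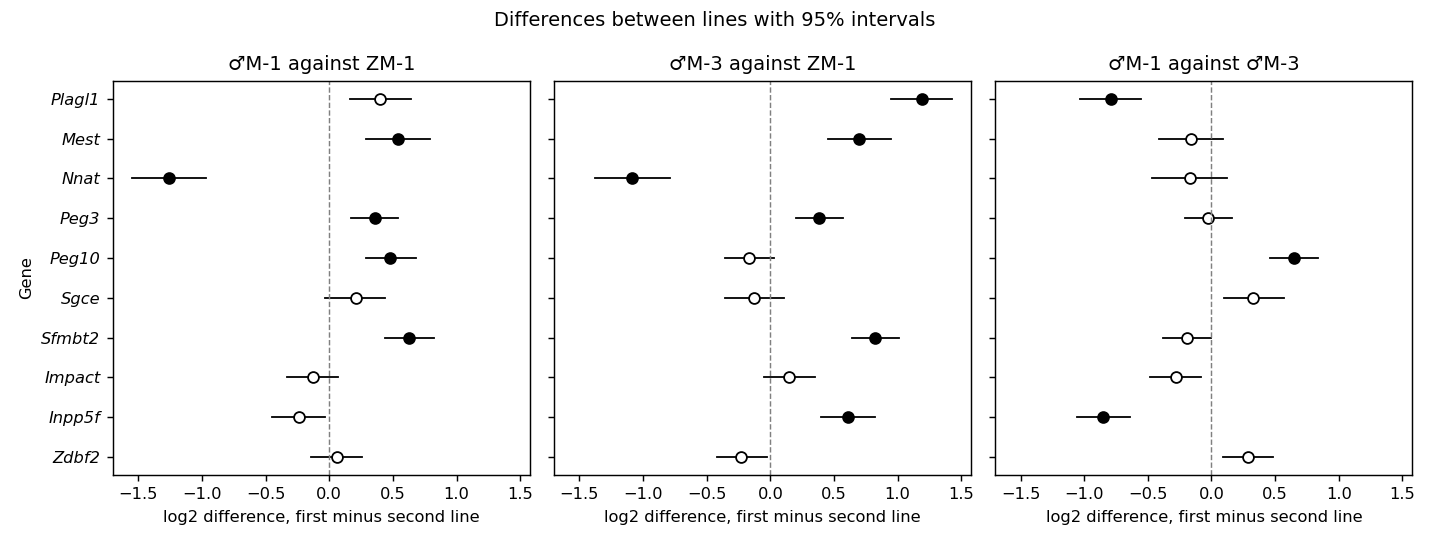
Difference of each gene (vertical axis) between lines on the log2 scale (horizontal axis, first named line minus the second), with 95% intervals; filled points have adjusted p below 0.05. Plagl1 is farthest to the right in ♂M-3 against ZM-1 at 1.19, and Nnat farthest to the left in both comparisons with ZM-1.

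By size of the line means, the order ♂M-3, ♂M-1, ZM-1 was seen for Plagl1, Mest, Peg3 and Sfmbt2, but the ♂M lines differed beyond the test only for Plagl1. The order ♂M-1, ZM-1, ♂M-3 was seen for Peg10, Sgce and Zdbf2, and the order ♂M-3, ZM-1, ♂M-1 for Impact and Inpp5f. Nnat alone had ZM-1 highest. The ratio of the highest to the lowest array was 2.88 for Nnat and 2.57 for Plagl1, and between 1.27 for Zdbf2 and 1.89 for Inpp5f for the others.

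Fibroblast markers differed between the lines as well. All 10 listed markers, among them Col1a1, Thy1 and Dcn, were lower in ♂M-3 than in ZM-1, and 6 of these calls were kept without ♂M-3 replicate 2, where Col1a2 (0.0546), Lum (0.233), Pdgfra (0.116) and Postn (0.0589) were lost. In addition, 3 of 10 (Dcn, Twist2 and Mmp2) were lower in ♂M-1. In ♂M-1, Twist2 was lost without ♂M-1 replicate 1 (0.0739) or 2 (0.149) or ZM-1 replicate 1 (0.0775), and Mmp2 without ♂M-1 replicate 2 (0.125) or ZM-1 replicate 1 (0.0617). Calls made up 30.0% of the 10 in ♂M-1 against ZM-1, 100% in ♂M-3 against ZM-1 and 80.0% between the ♂M lines. The shares of all genes were 4.41%, 15.9% and 6.54%. The summed level of the 10 markers was 3476 to 3789 in ♂M-1, 2236 to 2317 in ♂M-3 and 3969 to 4095 in ZM-1. Plagl1, Mest, Peg3, Sfmbt2 and Inpp5f, which rose in ♂M-3 against ZM-1, moved the opposite way to these markers. Nnat fell in ♂M-3 together with them, and Peg10 was lower in ♂M-3 than in ♂M-1, where 8 of 10 markers also differed in that direction. Their part in these results was not tested. Of 8 stem cell markers, 3 were higher in ♂M-3 than in ZM-1 (Nanog, Zfp42 and Tfcp2l1) and 0 lower, but of these only Zfp42 was kept when any ♂M-3 or ZM-1 array was left out (Nanog at 0.0806 to 0.161, Tfcp2l1 at 0.0631 to 0.111). The 3 stem cell marker calls made up 37.5% of the 8, against 15.9% of all genes. Of 6 primitive endoderm markers, 0 were called against ZM-1 in either line, against 4.41% of all genes for ♂M-1 and 15.9% for ♂M-3.

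Other imprinted genes give the setting for these values. Of 18 other paternally expressed genes measured, 1 was higher and 0 lower in ♂M-1 relative to ZM-1 (Igf2, lost without ♂M-1 replicate 2 at 0.120 and ZM-1 replicate 1 at 0.0505), 2 were higher and 1 lower in ♂M-3 than in ZM-1, and 1 was higher and 1 lower in ♂M-1 than in ♂M-3. The 3 calls in ♂M-3 against ZM-1 (Mcts2, Mkrn3 and Airn) became 0 without ♂M-3 replicate 1 (0.0774, 0.0785 and 0.0645) or 2 (0.110, 0.229 and 0.213) and without ZM-1 replicate 2 (0.0660, 0.187 and 0.0548), and 1 without either ♂M-1 array. Between the ♂M lines, Ndn was lost without ♂M-1 replicate 2 (0.262) or ♂M-3 replicate 1 (0.104) or 2 (0.223). Calls made up 5.56%, 16.7% and 11.1% of the 18 in the 3 comparisons, against 4.41%, 15.9% and 6.54% of all genes. The median log2 differences of the 18 were -0.02, -0.04 and 0.04, against 0.28, 0.27 and -0.16 for the 10 genes. All lists were drawn up with earlier results of these data known, so this contrast is not a test. Of 26 maternally expressed genes, 3 were higher and 0 lower in ♂M-1 relative to ZM-1. In ♂M-3 against ZM-1, 1 was higher and 3 lower, and between the ♂M lines 2 were higher and 1 lower in ♂M-1. These calls made up 11.5%, 15.4% and 11.5% of the 26, against the same shares of all genes as above. The 3 calls in ♂M-1 against ZM-1 (Phlda2, Meg3 and Rian) became 0 without ♂M-1 replicate 2 (0.125, 0.214 and 0.0620), and 1 without ♂M-1 replicate 1 or ZM-1 replicate 2. The 4 in ♂M-3 against ZM-1 became 1, Rian, without either ♂M-3 array, and 2 without either ZM-1 array. The 3 between the ♂M lines became 1, H13, without ♂M-1 replicate 2 or ♂M-3 replicate 2. Mcts2, a paternally expressed retrogene, lies in an intron of the maternally expressed protease gene H13, and they differed in opposite directions between the ♂M lines. Mcts2 stood at 415 ± 1.11 (SD, n = 2) for ♂M-1 and 607 ± 10.5 for ♂M-3 (adjusted p = 0.00305), with 484 ± 8.37 in ZM-1. H13 stood at 811 ± 55.8 (SD, n = 2) for ♂M-1 and 504 ± 23.6 for ♂M-3 (adjusted p = 0.00279), with 661 ± 47.2 in ZM-1.

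**Figure D3:**
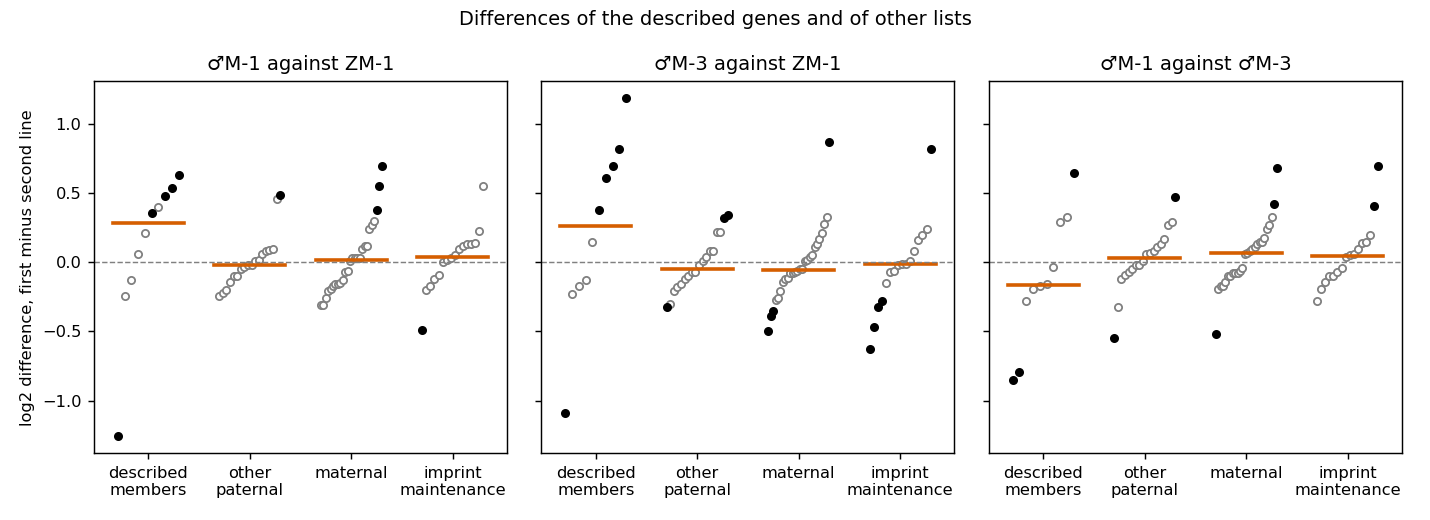
log2 difference between lines (vertical axis) of the 10 described genes, 18 other paternally expressed genes, 26 maternally expressed genes and 16 imprint maintenance genes; filled points have adjusted p below 0.05 and bars are list medians. The described genes have medians of 0.28 and 0.27 against ZM-1, and the other lists lie near 0. All lists were drawn up with earlier results of these data known.

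Among 16 genes that set or keep imprints, 0 were higher and 1 lower in ♂M-1 relative to ZM-1, and 1 was higher and 4 lower in ♂M-3. These calls made up 6.25% and 31.2% of the 16, against 4.41% and 15.9% of all genes. The 5 calls in ♂M-3 became 2, Dppa3 and Dnmt3a, without ♂M-3 replicate 1 or 2, where Dnmt3b (0.0914 and 0.0538), Dnmt3l (0.246 and 0.0885) and Zfp57 were lost, and 3 without either ZM-1 array. Dnmt3a, a de novo DNA methyltransferase, measured 289 ± 8.90 (SD, n = 2) in ♂M-1, 262 ± 9.46 for ♂M-3 and 407 ± 0.450 for ZM-1 (adjusted p = 0.00773 and 8.49e-04 against ZM-1). Leaving out ♂M-1 replicate 1 (0.0631) or 2 (0.0544) ended the first of these calls. Dnmt3b, the other de novo methyltransferase, stood at 679 ± 95.9 (SD, n = 2) for ♂M-1 and 415 ± 18.7 for ♂M-3 (adjusted p = 0.00457). Zfp57 measured 3088 ± 110 (SD, n = 2) in ♂M-1, 2781 ± 140 for ♂M-3 and 3471 ± 32.0 for ZM-1. It was 1.25-fold lower in ♂M-3 than in ZM-1 (adjusted p = 0.0237), and leaving out any of those 4 arrays ended the call (♂M-3 replicates 1 and 2 at 0.0652 and 0.161, ZM-1 replicates 1 and 2 at 0.0587 and 0.0784). The maintenance methyltransferase Dnmt1 and its partner Uhrf1 passed between no pair of lines.

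The chromosomal neighbours of the 10 genes, the 2 nearest measured genes on either side in RefSeq order, numbered 36 without the genes themselves. Of these, 2 were higher and 0 lower in ♂M-1 relative to ZM-1, 5 higher and 6 lower in ♂M-3 than in ZM-1, and 2 higher and 2 lower in ♂M-1 than in ♂M-3. These calls made up 5.56%, 30.6% and 11.1% of the neighbours, against 4.41%, 15.9% and 6.54% of all genes. The 11 in ♂M-3 against ZM-1 became 2 without ♂M-3 replicate 2, 5 without ♂M-3 replicate 1, and 7 and 4 without ZM-1 replicates 1 and 2. The 4 between the ♂M lines became 2 without ♂M-3 replicate 2, and the 2 in ♂M-1 against ZM-1 became 1 without ♂M-1 replicate 2. Beside Sgce, the sialic acid acetyltransferase gene Casd1 measured 112 ± 4.61 (SD, n = 2) in ♂M-1, 122 ± 4.62 for ♂M-3 and 79.9 ± 1.20 for ZM-1. Casd1 was higher in ♂M-1 relative to ZM-1 (adjusted p = 0.0100, and 0.0939 without ♂M-1 replicate 2) and in ♂M-3 (adjusted p = 0.00121). It therefore did not follow the order of Peg10 and Sgce. Beside Zdbf2, Adam23, a cell adhesion protein, measured 1046 ± 101 (SD, n = 2) in ♂M-1, 455 ± 5.03 for ♂M-3 and 609 ± 48.7 for ZM-1. It was 2.29-fold higher in ♂M-1 than in ♂M-3 (adjusted p = 2.19e-04), in the order of lines seen for Zdbf2.

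Beside Inpp5f, the chaperone cofactor Bag3 measured 201 ± 8.40 (SD, n = 2) in ♂M-1, 295 ± 20.1 for ♂M-3 and 183 ± 7.51 for ZM-1. It was 1.61-fold higher in ♂M-3 than in ZM-1 (adjusted p = 9.70e-04). It was 1.47-fold lower in ♂M-1 than in ♂M-3 (adjusted p = 0.00547, and 0.0580 without ♂M-3 replicate 2). Beside Impact, the lipid-binding gene Osbpl1a measured 245 ± 15.8 (SD, n = 2), 344 ± 28.4 and 260 ± 19.5 in ♂M-1, ♂M-3 and ZM-1. Its calls in ♂M-3 against ZM-1 (adjusted p = 0.0218) and in ♂M-1 against ♂M-3 (0.0181) were lost without ♂M-3 replicate 2 (0.152 and 0.141). The first was also lost without ZM-1 replicate 2 (0.101), and the second without ♂M-1 replicate 1 (0.0504) or 2 (0.158). Of the 4 neighbours of Plagl1, Ltv1, a ribosome assembly factor, was higher in ♂M-3 than in ZM-1 (log2 difference 0.31, adjusted p = 0.0225). Leaving out any array of either line ended it (♂M-3 replicates 1 and 2 at 0.0957 and 0.129, those of ZM-1 at 0.0577 and 0.0747). In the other comparisons 0 of the 4 passed. Also lower in ♂M-3 than in ZM-1 were Zim1 beside Peg3 (log2 difference -0.50, adjusted p = 0.0146) and Itih5 beside Sfmbt2 (-0.38, 0.0328). The same held for Cabyr near Impact (-0.35, 0.0152) and Col1a2 near Sgce (-0.45, 0.00545).

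**Figure D4:**
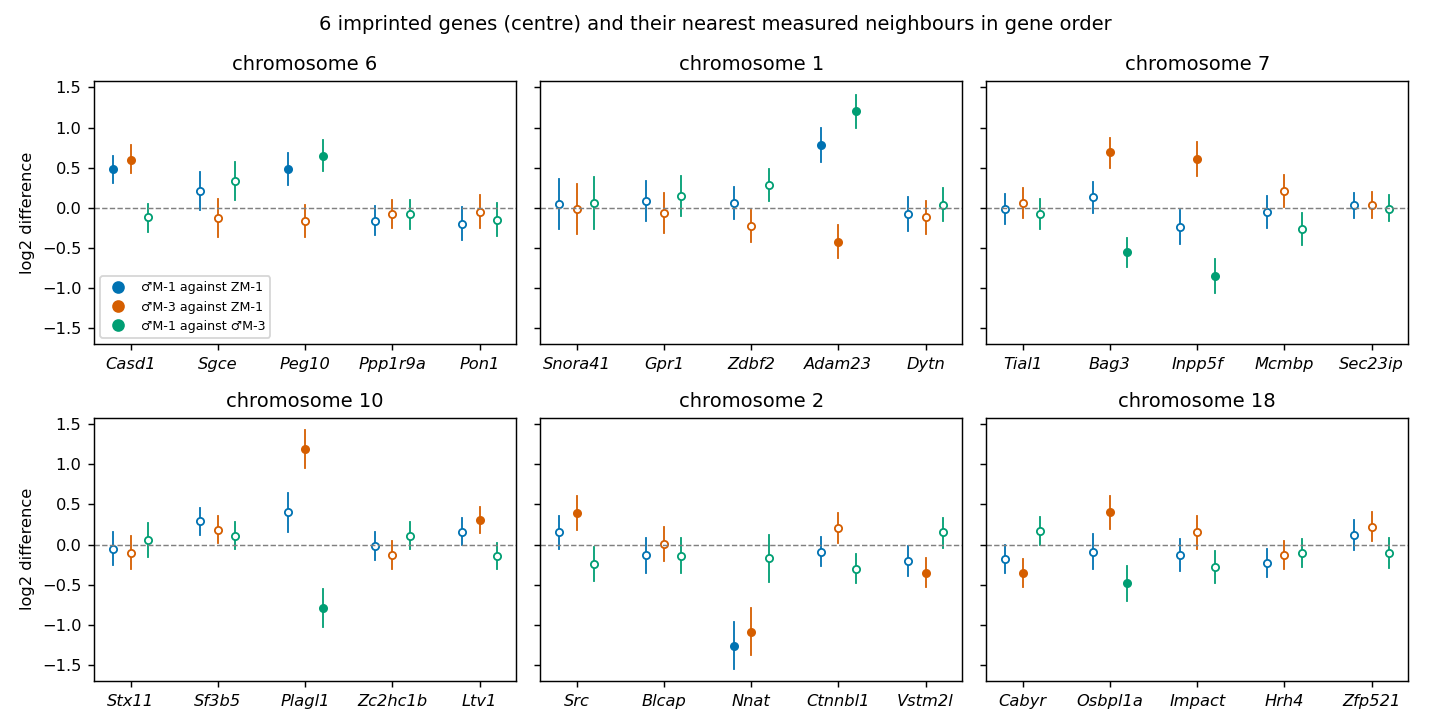
log2 difference (vertical axis, first named line minus the second) of 6 of the genes, at the centre of each panel, and of their nearest measured neighbours in gene order; bars are 95% intervals and filled points have adjusted p below 0.05. Nnat stands at -1.26 and -1.09 against ZM-1 beside Blcap near 0. Its neighbours Src (0.39) and Vstm2l (-0.35) were called in ♂M-3 against ZM-1. Adam23 beside Zdbf2 reaches 1.20 between the ♂M lines.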

How the data were processed

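RNA of 6 samples was labelled with biotin by a whole-transcript terminal labelling kit and hybridised to mouse gene arrays, per the labels' protocols. The authors deposited 1 linear intensity per probe set and array, and GCOS 1.4 is named in the submitters' processing notes; background correction and scaling stand in none of the sources used. Arrays have no counting depth, and their number limits the precision. Of 35556 probe sets, 21789 carried 1 gene symbol in the platform annotation, and the brightest per symbol was kept, giving 19938 genes; symbols of 21698 probe sets were checked against RefSeq and 0 changed.

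Values were transformed as log2(intensity + 1) without further scaling. With limma 3.58.1 (R 4.3.3), a linear model with 1 coefficient per line took in all 6 arrays (residual degrees of freedom 3, prior 6.01), with two-sided moderated tests adjusted by Benjamini-Hochberg over all genes at a threshold of 0.05. The fit was tested on simulated data. The 10 genes and all lists were chosen with earlier results of these data known. Besides the 10 genes, the text names list genes, chromosomal neighbours and, for the 2 genes with the largest difference, the 3 nearest profiles by Euclidean distance among named genes above the median level. Some of the named list genes and neighbours were picked after their values were seen. Alternatives were other scaling, offset, filters, probe sets, variance models, a replicate block and leaving out each array.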

Additional observations from a re-analysis of the deposited data

Results flagged for a closer look

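Peg10 and Inpp5f differed between the ♂M lines with the ZM-1 arrays lying between them. For Peg10 the log2 difference between ♂M-1 and ♂M-3 was 0.65 (adjusted p = 0.00283 by limma). Against ZM-1, Peg10 passed in ♂M-1 (0.48, adjusted p = 0.0160), a call lost without ♂M-1 replicate 2 or ZM-1 replicate 2 (0.127 and 0.0635), and did not pass in ♂M-3 (-0.17, adjusted p = 0.233). For Inpp5f the log2 difference between ♂M-1 and ♂M-3 was -0.85 (adjusted p = 0.00111 by limma). Against ZM-1, Inpp5f did not pass in ♂M-1 (-0.24, adjusted p = 0.194) and passed in ♂M-3 (0.61, adjusted p = 0.00290). Opposite sides of ZM-1 were therefore not shown by the test for either gene, and arrays without overlap were common among all genes.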

How the results depend on the processing

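Of 14 calls among the 10 genes over the 3 comparisons, 9 held in all of the 16 alternatives that could be computed and 5 were lost in at least 1; 0 changed direction where called. Between ♂M-1 and ZM-1, the 5 called members became 2 with all probe sets tested and 3 with only these lines fitted, and 2 to 4 without single arrays. Between ♂M-1 and ♂M-3, the 3 became 5 among genes above the 50th percentile and 6 with an intensity trend. Genes called numbered 880 in ♂M-1 against ZM-1, 275 with all probe sets, 1632 with the trend, and 234 to 631 without single arrays. In ♂M-3 against ZM-1 there were 3162, 2027 with all probe sets and 1302 to 2750 without single arrays, and in ♂M-1 against ♂M-3 1303, 442 and 357 to 1495. Median centring raised the share of calls that were higher from 42.7% to 62.0% in ♂M-1 against ZM-1 and from 54.6% to 70.9% in ♂M-3 against ZM-1. Over all genes, repeats with the same number did not deviate together (correlations 0.07, -0.10 and -0.03). This does not settle whether the numbers pair the arrays. With the replicate block, Plagl1 was called in ♂M-1 against ZM-1 (adjusted p = 0.0401) and Peg3 lost there (0.0616), and the genes called there numbered 686. Inpp5f lay below the 50th percentile and has no value under that filter. Of 78 calls among list genes and neighbours, 48 were lost without some array. Leaving out an array also lowers the degrees of freedom, so a lost call need not mean that the difference rested on that array. The causes were not tested.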
